A study of Arabidopsis thaliana with 4 samples.

Results

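The tau class is the largest class of glutathione S-transferases (GSTs) in Arabidopsis thaliana, and 4 of its genes, GSTU18 (AT1G10360), GSTU22 (AT1G78340), GSTU26 (AT1G17190) and GSTU27 (AT3G43800), were followed here on every array of the series. The members were found by locus in the array annotation, and each had 1 probe set listed for that gene alone. They are 4 of the 28 tau-class loci considered, of which 11 had such a probe set, and 4 of the 13286 genes that had one. Expression was measured on 4 single-colour Affymetrix arrays, with total RNA from whole plants kept on agar plates without further treatment. Of these, 2 carried RNA of ppi2 mutants aged 20 days and 2 RNA of wild-type plants aged 10 days. The ppi2 mutation is an insertion that inactivates TOC159, which recognises precursor proteins at the chloroplast surface, and its plants are known to be pale and to grow slowly. Genotype and age changed together and cannot be told apart. Arrays sharing a label are called biological replicates, with no separate cultures named, so the spread behind every p-value is that between arrays and may be technical.

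GSTs join the tripeptide glutathione to reactive, electrophilic compounds, which plants then move into the vacuole, and some members act as peroxidases or carry ligands. The tau class is found in plants and is known for the detoxification of herbicides and for induction by oxidative stress, hormones and xenobiotics. Its genes lie largely in tandem clusters. In the RefSeq gene table GSTU18 neighbours GSTU17 (listed there as ERD9), GSTU22 lies between GSTU23 and GSTU21, and GSTU26 is next to GSTU25, all on chromosome 1. GSTU27 is on chromosome 3, and no tau gene was among the 3 protein-coding genes on either side of it.

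The arrays did not group by their labels. Across the 13604 tested probe sets, which are not independent replicates, the closest arrays were ppi2 replicate 1 and wild-type replicate 2, with r = 0.981, followed by wild-type replicate 1 and ppi2 replicate 2, with r = 0.953, and the other 4 pairs lay between 0.798 and 0.823. Of 5 leaf markers 2 were measured, LHCB4.2, an antenna protein of photosystem II, and PSAN, a photosystem I subunit. Their summed signal was 4578 and 46365 in ppi2, replicate 1 first as in all values below, and 50221 and 3689 in wild type. Of 5 root markers, the expansins EXPA7 and EXPA18 were measured. EXPA18 read 95.4 to 178 and EXPA7 71.8 to 104, near or below the mean signal of 124 that a probe set needed to be tested, so the root markers at hand lay near the floor in both groups. In RNA of whole plants, fewer cells of a type and less RNA per cell cannot be told apart. No probe set was listed for TOC159 alone, and probe sets of several genes or without a gene name were not searched for it. The mutation was thus not used to check the labels, and arrays are named by their labels throughout. Whether any labels were exchanged was not tested, so every ppi2 minus wild-type value below holds only for the labels as given.

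GSTU18 was high on 1 array of each labelled group and low on the other. Its MAS5 signal, a brightness per probe set on a linear scale, was 414 in ppi2 replicate 1 and 845 in ppi2 replicate 2, and 863 in wild-type replicate 1 and 296 in wild-type replicate 2. The arrays ppi2 replicate 2 and wild-type replicate 1 were thus nearly equal and high, ppi2 replicate 1 and wild-type replicate 2 were low, and the labelled groups overlapped. The highest signal was 2.91 times the lowest.

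GSTU22 had the same split of arrays with a smaller range. Its signal was 407 and 700 in ppi2 and 591 and 429 in wild type. The lowest values were again those of ppi2 replicate 1 and wild-type replicate 2, and the highest was 1.72 times the lowest.

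GSTU26 ran the other way and had the widest range of the 4 genes. Its signal was 450 and 292 in ppi2 and 113 and 506 in wild type. Wild-type replicate 1 stood apart below the other arrays, ppi2 replicate 2 was intermediate, and the array pair low for GSTU18 was the high pair here. The highest signal was 4.48 times the lowest.

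GSTU27 had a signal of 1378 and 827 in ppi2 and 1041 and 1176 in wild type. Both wild-type values lay between the ppi2 values, and the highest was 1.67 times the lowest. Signals of different probe sets depend on their probes, so the 4 genes were not ranked against each other.

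**Figure D1:**
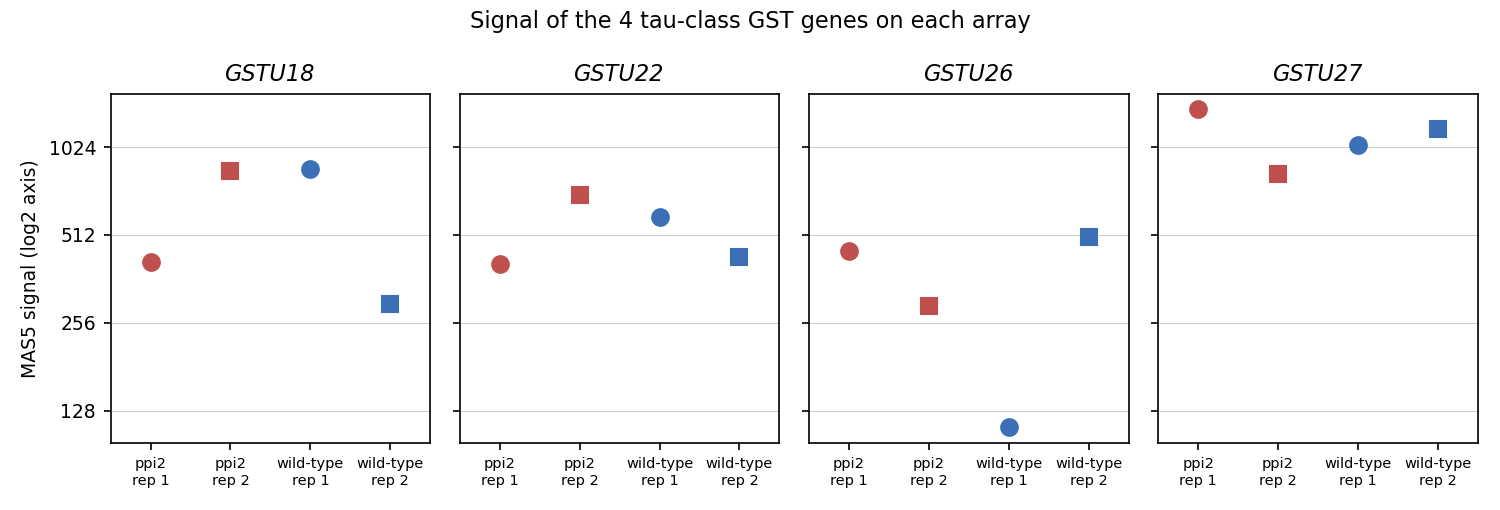
MAS5 signal (log2 axis) of GSTU18, GSTU22, GSTU26 and GSTU27 on each of the 4 arrays, 1 point per array, red for arrays labelled ppi2 and blue for wild-type, circles for replicate 1 and squares for replicate 2. GSTU18 and GSTU22 are low on ppi2 replicate 1 and wild-type replicate 2, GSTU26 and GSTU27 are high there, and GSTU26 reads 113 on wild-type replicate 1.

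The comparison the study's design implies is ppi2 against wild type. None of the 4 genes differed between the labelled groups by more than the spread of their arrays (limma on log2 of signal plus 7.99, Benjamini-Hochberg adjustment over 13604 probe sets). Among all features, 0 probe sets passed an adjusted p of 0.05 (0.0%), and 8 had an unadjusted p under 0.05 (0.0588%), so the members' count of 0 equals the background. The arrays that pair across the labels count as residual spread in this fit, which widens the intervals below.

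The GSTU18 signal averaged 629 ± 305 (SD, n = 2) in ppi2 and 580 ± 400 (SD, n = 2) in wild type. Its log2 difference, ppi2 minus wild-type, was 0.22 with a standard error of 0.65 (limma adjusted p = 0.99997). The 95% interval, from 0.353-fold to 3.84-fold, left room for large changes either way. For GSTU22 the means were 553 ± 207 and 510 ± 115 (SD, n = 2 each), and the log2 difference was 0.08 with a standard error of 0.39 (limma adjusted p = 0.99997), an interval of 0.522-fold to 2.15-fold.

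For GSTU26 the means were 371 ± 112 and 309 ± 278 (SD, n = 2 each). The log2 difference of 0.57 with a standard error of 0.77 (limma adjusted p = 0.99997) had an interval from 0.366-fold to 6.05-fold. It rested on wild-type replicate 1, without which it was -0.47, while without wild-type replicate 2 it was 1.62. GSTU27 had means of 1102 ± 390 and 1109 ± 95.1 (SD, n = 2 each) and a log2 difference of -0.05 with a standard error of 0.36 (limma adjusted p = 0.99997), an interval of 0.498-fold to 1.87-fold. The sign of this small difference turned with median centring of the arrays, to 0.0062. Leaving out 1 array turned the sign of the GSTU18 and GSTU22 differences without ppi2 replicate 2 (-0.29 and -0.30) and without wild-type replicate 2 (-0.54 and -0.14), and that of GSTU27 without the same arrays (0.31 and 0.04).

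**Figure D2:**
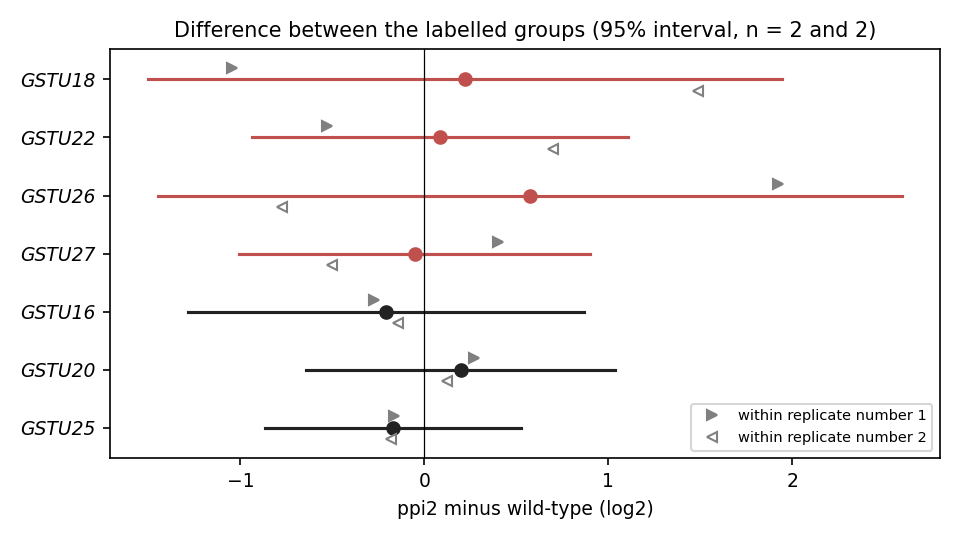
Log2 difference, ppi2 minus wild-type, of the 7 tau-class genes tested, with 95% limma intervals (circles and lines, 2 arrays per group, red for GSTU18, GSTU22, GSTU26 and GSTU27 and black for 3 other tau genes), and the difference within each replicate number (triangles, 1 array per arm). All 7 intervals include 0, and the triangles of the red genes lie on opposite sides of 0.

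Within a replicate number, ppi2 minus wild-type rests on 1 array per arm and has no error. GSTU18 had a log2 difference of -1.05 in replicate number 1 and of 1.49 in replicate number 2, at least 2-fold in each and in opposite directions. A 2-fold difference of either sign was met by 21.0% of the tested probe sets in number 1 and by 18.3% in number 2. GSTU22 had differences of -0.53 and 0.70, under 2-fold in both. GSTU26 had differences of 1.92 and -0.78, at least 2-fold only in number 1, where 5.07% of the tested probe sets differed by as much. GSTU27 had 0.40 and -0.50, which 57.3% and 44.2% of the tested probe sets matched or passed in size.

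All 4 genes thus had opposite signs in the replicate numbers, as did 77.9% of the tested probe sets. In each of the 4, ppi2 replicate 1 and wild-type replicate 2 lay together below or together above the other arrays, an order met by 69.4% of the tested probe sets (32.7% below and 36.7% above). GSTU18 and GSTU22 were lower on ppi2 in number 1 and higher in number 2, a direction held by 36.8% of the tested probe sets. GSTU26 and GSTU27 had the reverse, held by 41.1%. These shares are the background of the table, and the members' count was not tested against them. The leaf markers had the direction of GSTU18 and GSTU22 with larger differences, -5.15 and 5.35 for LHCB4.2 and -2.43 and 2.50 for PSAN. Whether greening of the plants had a part in the GST values was not tested.

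**Figure D3:**
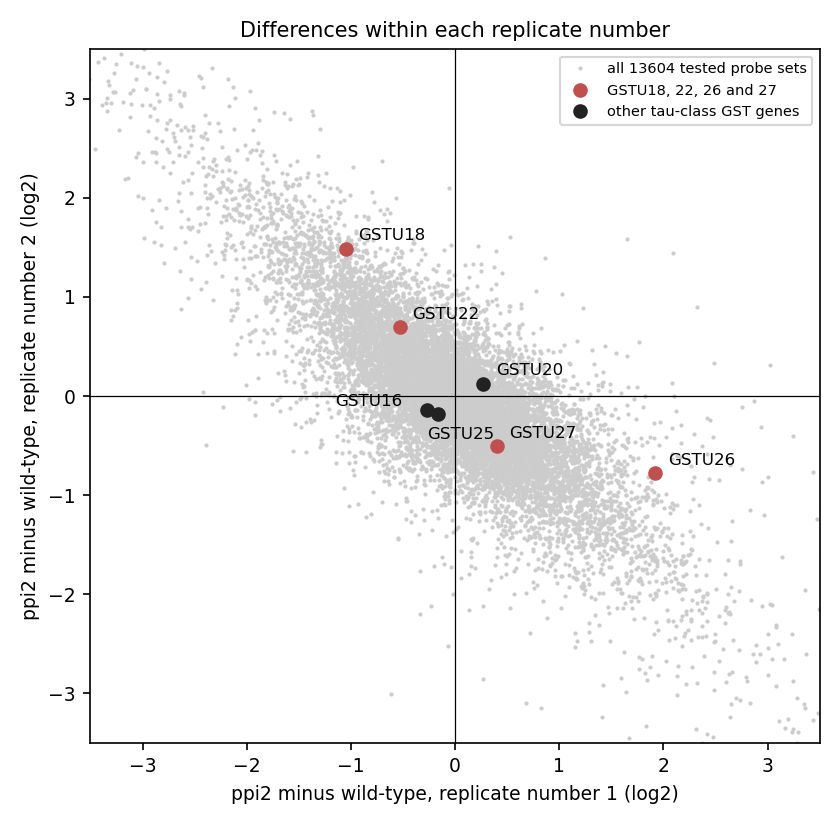
Log2 difference, ppi2 minus wild-type, within replicate number 1 (horizontal axis) and replicate number 2 (vertical axis) for all 13604 tested probe sets (grey), GSTU18, GSTU22, GSTU26 and GSTU27 (red) and 3 other tau genes (black). The axes end at 3.5, which leaves 147 probe sets outside. GSTU18 and GSTU22 lie in the upper left, GSTU26 and GSTU27 in the lower right, and the black points near 0.

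The array pairs give the size of these differences against the rest of the table. Between ppi2 replicate 2 and wild-type replicate 1, GSTU18 differed by only 0.03 on the log2 scale, where the median tested probe set differed by 0.26. Between ppi2 replicate 1 and wild-type replicate 2, the closest arrays, GSTU18 differed by 0.47 in size against a median of 0.156, and 9.15% of the probe sets differed by as much. GSTU22 differed by 0.24 and 0.07 in these pairs. GSTU26 differed by 1.31 between ppi2 replicate 2 and wild-type replicate 1, a size reached by 1.46% of the tested probe sets, but by 0.16 between ppi2 replicate 1 and wild-type replicate 2. GSTU27 differed by 0.33 and 0.23. The GSTU26 difference between ppi2 replicate 2 and wild-type replicate 1 is thus the member difference that departs most from the crossed pairing of the arrays. Which of these arrays departs cannot be told from 1 pair.

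Control probe sets also differed between the arrays. The 18 hybridisation controls had a median of 840 and 1670 in ppi2 and 1510 and 1110 in wild type, in the order of GSTU22 and with the same low arrays as GSTU18. The 5' probe set of GAPDH read 2160 and 1760 in ppi2 and 1220 and 2050 in wild type, lowest on wild-type replicate 1 as GSTU26 was, and the ratio of its 3' to its 5' signal was 2.62 there against 1.63 to 1.96 elsewhere. The same ratio for actin did not single out that array, with 38.8 and 26.8 in ppi2 and 34.0 and 30.7 in wild type. The middle probe set of actin, however, was lowest on wild-type replicate 1, with 2290 and 2100 in ppi2 and 1510 and 2410 in wild type. After quantile normalization, which gives every array the same distribution of signals, the differences within numbers were -1.13 and 1.53 for GSTU18 and 2.15 and -0.72 for GSTU26. The part of RNA quality in these values was not tested.

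The other tested tau genes had smaller differences within the replicate numbers, between 0.12 and 0.27 on the log2 scale in size. Besides the 4 members, 7 tau genes had a probe set of their own, of which 3 passed the filter on mean signal and 4 did not. GSTU20, known to bind the jasmonate-conjugating enzyme JAR1 (FIN219), read 2396 and 2931 in ppi2 and 1985 and 2689 in wild type, with a log2 difference of 0.20 and a standard error of 0.32 (limma adjusted p = 0.99997). It lies in the chromosome 1 cluster of GSTU22 but did not show that gene's order of arrays, since its replicate 1 arrays were both below its replicate 2 arrays. A split by replicate number, in either direction, was found for 16.3% of the tested probe sets. GSTU16 shared it, with 209 and 348 in ppi2 and 254 and 385 in wild type. Differences within a number leave such a split out. Over all arrays the highest GSTU16 signal was 1.84 times the lowest, against 1.72 times for GSTU22 and 1.67 times for GSTU27. The spiked poly-A controls also followed the replicate number, in the other direction, with medians of 1570 and 477 in ppi2 and 2390 and 481 in wild type.

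GSTU25, the neighbour of GSTU26 and known for conjugating the explosive TNT, was the steadiest tested tau gene. It read 334 and 307 in ppi2 and 375 and 349 in wild type. Its labelled groups did not overlap, with ppi2 lower, which held for 8.14% of the tested probe sets in that direction, and the log2 difference was -0.17 with a standard error of 0.26 (limma adjusted p = 0.99997). Its within-number differences of -0.16 and -0.18 had 1 sign, unlike those of GSTU26 beside it (1.92 and -0.78). The probe sequences were not used here, so whether any of these probe sets also binds transcripts of a clustered copy was not tested.

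The 4 dim tau genes had mean signals under the filter. GSTU15 read 123 and 2.62 in ppi2 and 11.4 and 92.0 in wild type, and GSTU21, next to GSTU22, read 21.1 and 84.8 against 5.20 and 2.72. GSTU28 read 119 and 108 against 52.1 and 134. GSTU23, on the other side of GSTU22, lay between 80.7 and 108 on all 4 arrays. With no detection calls, order among signals this low was not read. The remaining 17 tau genes, GSTU17, GSTU19 and GSTU24 of these clusters among them, had no probe set listed for them alone and were not analysed here.

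Few genes of the other lists were measured. These held GSTs of other classes, glutathione and sulfate metabolism, ABCC transporters, xenobiotic and oxylipin response, and TGA factors. Of 78 listed genes outside the tau class 7 were tested, and 0 passed the threshold in either direction. GSTL3, a lambda-class GST, had the order of GSTU18, with 1363 and 2700 in ppi2 and 3739 and 1267 in wild type. GSTF4, of the phi class, read 129 and 180 against 152 and 181. The labelled log2 differences of the 2 genes were -0.18 and -0.11, against a median of -0.01 over all tested probe sets. ATGSTF13, the third measured GST outside the tau class, was under the filter. It read 25.3 and 61.4 in ppi2 and 70.3 and 5.07 in wild type, and its order was not read.

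The 2 glutathione reductases, which return oxidised glutathione to its reduced form, each had the crossed order of arrays, as did 69.4% of the tested probe sets. Of the 10 tested genes of the tau and other lists besides the members, 2 had it with the pair below (GSTL3 and GR). Another 3 had it with the pair above (GR1, UGT73B5 and AT2G21640). GR, the enzyme of plastids and mitochondria, read 1577 and 2435 in ppi2 and 2853 and 1627 in wild type, low on the same arrays as GSTU18 and GSTU22. GR1, the cytosolic and peroxisomal enzyme, read 1779 and 1354 against 1028 and 1738, with the array order of GSTU26 reversed only between the high arrays. Their labelled log2 differences were -0.14 for GR, with a standard error of 0.43, and 0.21 for GR1, with a standard error of 0.39 (limma adjusted p = 0.99997 for both).

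SIR, the sulfite reductase of sulfate assimilation, upstream of cysteine and glutathione, was nearly level with 2362 and 2330 in ppi2 and 2572 and 2316 in wild type. From the list of xenobiotic and oxylipin response, UGT73B5, a glucosyltransferase, read 416 and 108 against 136 and 422. AT2G21640, a marker of oxidative stress, read 581 and 115 against 109 and 906. Both had high arrays in common with GSTU26 and GSTU27, and their ranges of 3.91 and 8.28 times exceeded that of GSTU27. UGT73B4, the third measured gene of this list, was just under the filter with a mean signal of 118. It read 57.9 and 162 in ppi2 and 193 and 60.5 in wild type, low on the arrays where UGT73B5 was high. At signals this low the order was not relied on, as for the dim tau genes. The listed ABCC transporters carry glutathione conjugates, and TGA factors are known regulators of GST promoters. No gene of either list had a probe set listed for it alone. The annotation named genes for only 14016 of the 22810 probe sets, so the array may measure such genes without naming them.

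**Figure D4:**
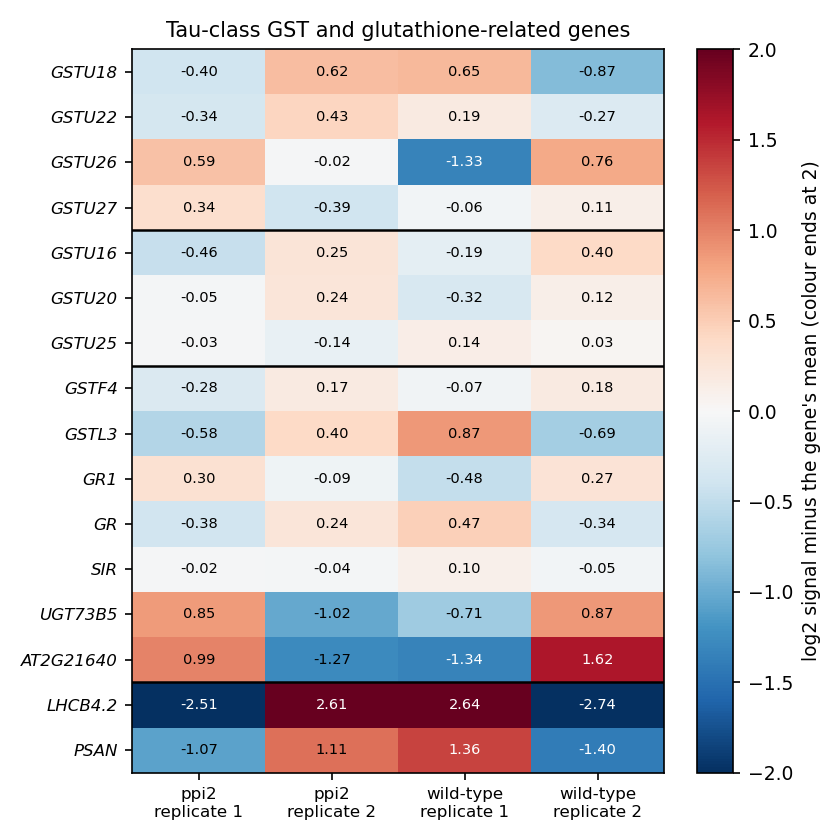
Log2 signal minus the gene's own mean over the 4 arrays (colour and printed value) for the 4 members, 3 other tested tau genes, 7 tested genes of the other lists and 2 leaf markers, separated by black lines. GSTU18 (-0.40, 0.62, 0.65 and -0.87), GSTL3 and GR share their low and high arrays with LHCB4.2 and PSAN, and GSTU26 (0.59, -0.02, -1.33 and 0.76) shares its high arrays with GR1, UGT73B5 and AT2G21640.

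The profiles of the members were also set against those of 7217 other named, tested probe sets, by the root mean square difference of log2 values centred per gene over 4 arrays. GSTU18 was 0.391 from GSTU22, the closest pair of members, and 1.41 from GSTU26. The nearest genes named next are the smallest of 7217 distances, so the distances between members cannot be judged against theirs. The genes nearest to GSTU18 were JKD, a zinc finger factor of root patterning (0.0442), AT3G51150 and AT2G21530, and 19 lay within 0.1. Those nearest to GSTU22 were AT1G28680, AT2G05790 and FRO1, a subunit of mitochondrial complex I, with 130 within 0.1. For GSTU26 they were AT5G65900, AT3G15180 and TET5, a tetraspanin, and only these 3 lay within 0.1. For GSTU27 they were AT1G20760, AT5G01960 and AZG1, a purine transporter, with 148 within 0.1. With 4 arrays such likeness is a description of these arrays, and a small range, as in GSTU22 and GSTU27, puts many genes close.

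Genes next to the members were measured in part. Beside GSTU18, AT1G10350 read 519 and 655 in ppi2 and 563 and 534 in wild type, a range far narrower than that of GSTU18. AT1G10380, 2 genes away on the other side, had the split of GSTU18, with 255 and 367 in ppi2 and 416 and 240 in wild type. AT1G10340, 2 genes away on the side of AT1G10350, had the reverse split, with 412 and 238 against 227 and 460. AT1G17160 and FUG1, each 3 genes from GSTU26, had the split of GSTU18 and not that of GSTU26. They read 318 and 498 against 514 and 264, and 2418 and 2925 against 3456 and 2347. AT3G43740, 3 genes from GSTU27, also had the split of GSTU18, with 2.72 and 639 against 418 and 9.43. A crossed order of either direction was met by 69.4% of the tested probe sets. No immediate neighbour of GSTU27 had a probe set listed for it alone.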

How the data were processed

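The authors deposited MAS5 signals, a linear intensity per probe set, and MAS5 is the tool in the submitters' processing notes. The MAS5 version is not given in the sources at hand. The 2% trimmed mean over all probe sets was already 500 on each array, so no further scaling was applied. Of 22810 probe sets, 64 controls were left out. Names came from the platform annotation (13513 probe sets with 1 gene, 13436 of them matched by gene identifier to RefSeq genes of assembly TAIR10.1, used for names, chromosomes and neighbours). Groups and replicate numbers came from the sample titles. A pseudocount of 7.99 (the 10th percentile of the signals) preceded log2, which understates changes of dim probe sets. The brightest probe set stood for a gene (157 others removed), and 8985 dim probe sets with a mean signal under 124 (40th percentile) were dropped, so that 13604 were tested. The labelled groups entered limma 3.58.1 (R 4.3.3) with a variance trend and no covariate. Two-sided p-values were adjusted by Benjamini-Hochberg (threshold 0.05, 2 residual and 2.59 prior degrees of freedom). The fit was also run on simulated data with independent noise of equal SD for every gene, which lack the pairing of these arrays across the labels. Same-numbered arrays deviated in opposite directions (correlation -0.818 across probe sets), so the numbers did not pair them. No detection calls were used, and the number of arrays limits the precision. Named genes were the members, up to 4 tested genes of each list with the widest range, the 3 nearest profiles and measured neighbours. The dim tau genes, UGT73B4, ATGSTF13, AT1G10340, AT1G10380, AT1G17160, FUG1 and AT3G43740 were added beyond this rule, after their values were seen. Members and lists were chosen with earlier results of these data known. Promoter and protein sequences were not used here. Alternatives were other scalings, pseudocounts and filters, no trend, the replicate block and leaving out each array. Plots used matplotlib 3.10.9 and Python 3.11.15.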

Additional observations from a re-analysis of the deposited data

Results flagged for a closer look

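For each of the 4 tau-class genes ppi2 minus wild-type had 1 sign in replicate number 1 and the opposite sign in replicate number 2. The log2 differences were -1.05 and 1.49 for GSTU18, -0.53 and 0.70 for GSTU22, 1.92 and -0.78 for GSTU26, and 0.40 and -0.50 for GSTU27. Each rests on 1 array per arm, and the change between the numbers was not tested. Opposite signs were found for 77.9% of all tested probe sets.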

How the results depend on the processing

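Under all 13 alternatives run, the replicate block included, 0 probe sets passed the threshold (at an unadjusted p under 0.05 in limma, 0 with that block against 8 without it). No member passed under any alternative that kept all 4 arrays (lowest limma adjusted p = 0.9999). The block moved no difference, and could not, since each replicate number held 1 array of each group. With crossed replicate numbers as the block, an alternative added with the data in view, 0 probe sets passed as well. At an unadjusted p under 0.05 in limma it was 554 of the 13604 tested probe sets. That share is below 0.05, the share reached by chance when no probe set differs. GSTU26 was among them, with an unadjusted limma p of 0.0441 and an adjusted p of 0.9999. With median centring the GSTU27 difference was 0.0062 in place of -0.05. Leaving out 1 array gave log2 differences of -0.54 to 0.98 for GSTU18, -0.30 to 0.47 for GSTU22, -0.47 to 1.62 for GSTU26 and -0.42 to 0.31 for GSTU27, taking the remaining array of a group to have the other group's spread. The signs followed which array was left out. All 32 alternative values within a replicate number moved by less than 1 SD between replicates. That SD was taken within the labelled groups, where the pairing of arrays across the labels widens it, so the check was lenient. Signal near the floor limits what dim probe sets show.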
